A study of Mus musculus with 18 samples.

Results

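The germ cells examined here listed 2796 unannotated spliced intergenic transcripts, which fell into 2126 loci. A member was an assembled transcript with at least 2 exons. It had the same chromosome, strand and intron chain in at least 3 of 18 libraries, and none of its exons touched an exon or intron of any gene, on either strand, in the GENCODE vM1 annotation of the mouse genome build mm9. Of 37530 spliced transcripts listed in at least 3 libraries and 203392 listed in any library, the members were those 2796. Members that shared an intron were joined into 1 locus, and a locus was given a label here, Igt followed by its chromosome and letters in order of position. Of the loci, 515 had an exon overlapping another locus on the same strand. Some of these may be forms of the same transcript, which all counts and percentages of loci take as separate. Because the rule itself asks for detection, the number of libraries that list a member is a description of how it was chosen. At the edge of the rule, 1043 members (37.3%) were listed in exactly 3 libraries, with a median level of 4.11 FPKM where listed. The 2315 spliced intergenic transcripts listed in 2 libraries, just outside it, had a median of 3.76 FPKM. FPKM, the unit of all levels here, is the number of sequenced fragments per length of transcript, relative to all mapped fragments of the library.

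The RNA came from germ cells of wild type adult C57BL/6 mice, sorted by sedimentation from pooled testes into pachytene spermatocytes, round spermatids and elongating spermatids. Each lysate, kept in cycloheximide to hold ribosomes on RNA, was run on a sucrose gradient, and RNA was sequenced from the heavy polysome fractions and from the light ribonucleoprotein particle (RNP) fractions. There were 3 libraries in each of 6 groups, which in order of stage were polysome and RNP of pachytene spermatocytes, polysome and RNP of round spermatids, and polysome and RNP of elongating spermatids. All groups share strain, genotype and age. Purity was judged by the study from cell morphology and was lowest for elongating spermatids.

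Pachytene spermatocytes are in the long prophase of meiosis, and after the divisions the haploid round spermatids elongate, pack their DNA with transition proteins and protamines, and shut down transcription. Many mRNAs for the late steps are held in RNPs and are translated on polysomes days later. The testis also transcribes many long noncoding RNAs, among them the long, often intronless or sparsely spliced precursors of pachytene piRNAs, whose transcription in mouse spermatocytes is driven by A-MYB, the product of Mybl1, often from 1 promoter toward both sides. Which of the loci below are such precursors cannot be told from these files, which hold neither small RNAs nor a map of piRNA clusters.

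The loci were first examined at the sequence level, because strand and intron chain decide what counts as a member. Of 4744 introns in member transcripts, 98.4% had the GT-AG ends of ordinary introns, 70 had GC-AG ends and 6 had AT-AC ends. Annotated coding transcripts listed in the same libraries had 99.1% GT-AG introns, and annotated lincRNAs, long noncoding RNAs between genes, had 98.7%. Since the assembler reads a strand from these dinucleotides, the shares describe the input to the rule as well as the members. Splice sites of abundant members are given here, read on the strand of the transcript in mm9, with the intron's first or last 2 bases in capitals. The donor of Igt1cz is one of the GC donors.
Igt5em donor, chr5:143927099-143927118 (-): gtactcgaagGTttccaccg
Igt5em acceptor, chr5:143926762-143926791 (-): aacttgccactcttcaacAGaaatccaaac
Igt1bx donor, chr1:73071379-73071398 (+): ggaacaaaagGTacgatgat
Igt1bx acceptor, chr1:73071876-73071905 (+): ctcctcctttgtctcctcAGtgaggcacac
Igt7bs first donor, chr7:59270998-59271017 (-): agtctacccaGTgagttctc
Igt7bs first acceptor, chr7:59270261-59270290 (-): tgttcttacttactatgtAGgaaggaccac
Igt1cz donor, chr1:99079734-99079753 (+): ttatatttagGCaagtttta
Igt1cz acceptor, chr1:99085829-99085858 (+): ttctgcatttcattttctAGctattgcaga
IgtXah donor, chrX:120116509-120116528 (-): actgcatgagGTaggctggg
IgtXah acceptor, chrX:120115981-120116010 (-): tataaaattcctcccctcAGgtttgaagtc

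The 3′ ends were read for the poly(A) signals AATAAA and ATTAAA, the hexamers that direct cleavage and polyadenylation. Ends differ between libraries, so the median end over libraries was used here, while the coordinates given for a locus are the outermost of all its assemblies. One of the hexamers lay in the last 50 nucleotides of 844 members (30.2%), against 38.2% of annotated lincRNAs and 49.8% of coding transcripts. The ends of 3 abundant loci are shown with the hexamer in capitals.
Igt5em end, chr5:143926457-143926486 (-): ttcaaAATAAAagtaaaatttcaagcttat
Igt1bx end, chr1:73072045-73072074 (+): gtctctaAATAAAacctcttctttctcgga
Igt7bs end, chr7:59267053-59267082 (-): tgcaaAATAAAaactgagcttgcagtaaca

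The start of each locus, from 250 bases before to 50 bases after the median 5′ end of its most abundant transcript, was searched on both strands for the core of the MYB recognition motif, CNGTTA or CNGTTG. The motif was found at 1225 of 2126 loci (57.6%), against 47.1% of annotated lincRNA starts and 47.4% of coding starts over windows of the same 300 bases. At least 2 copies were present in 24.5% of the loci, against 15.6% and 15.4%. The windows also differed in base composition: the median GC content was 46.3% at the loci, against 55.7% at lincRNA and 55.0% at coding starts, and the median number of CG dinucleotides was 3, against 11 in both annotated classes. The part of base composition in the motif share was not tested. Motif windows are shown for Igt14di, whose 5′ end lies 143 bp from that of its divergent partner Igt14dh, for 2 long loci that were high in pachytene spermatocytes, Igt6aw and Igt10l, and for Igt3ae, the longest member. The last 3 were chosen after their values were seen. Capitals mark the motif or its reverse complement for 1 match in each window, so that a further match may stand in lower case, and a match describes these letters only. The median 5′ end of Igt6aw, 81860450, lies inside its outermost coordinates.
Igt14di, chr14:115345230-115345259 (+): tcttctaaaccaCAGTTGatatagaaatta
Igt6aw, chr6:81860517-81860546 (-): tttgagcttggtCGGTTGgcattctgcgtc
Igt6aw, chr6:81860464-81860493 (-): ttgccgttcttgCCGTTAgggctgctccgc
Igt10l, chr10:18551739-18551768 (-): cgccctcctcacCAACGGtcccactggtct
Igt10l, chr10:18551717-18551746 (-): actggtcttcacTAACCGcagagctgaggc
Igt3ae, chr3:34725525-34725554 (+): gaaagaccttggCAGTTGggattcagatac
Igt3ae, chr3:34725546-34725575 (+): ttcagatactgtCAGTTGtaactgatgggc

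In structure the members were short and simple. The median spliced length was 515 nucleotides and the median number of exons was 2, with 64.9% of members having exactly 2 exons. Listed lincRNAs had a median of 1014 nucleotides and 3 exons, and listed coding transcripts 2062 nucleotides and 8 exons. The longest open reading frame of a member had a median of 44 codons, and 258 members (9.23%) had a frame of at least 100 codons, against 13.4% of lincRNAs and 89.5% of coding transcripts. At the extremes, 92 members were shorter than 200 nucleotides and 22 were 5000 nucleotides or longer. The longest, in Igt3ae, had 10532 nucleotides in 3 exons, and the one with most exons, in Igt19af, had 30.

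**Figure D1:**
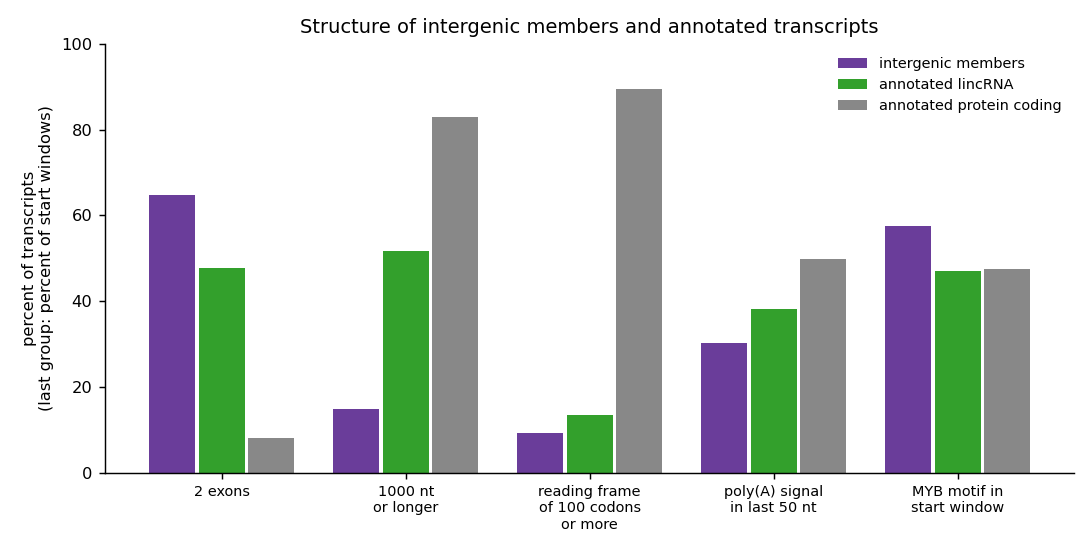
Percent of member transcripts (purple), annotated lincRNA transcripts (green) and annotated coding transcripts (grey) with exactly 2 exons, with 1000 nucleotides or more, with a reading frame of at least 100 codons and with a poly(A) signal, and percent of start windows with the MYB motif core. Members with 2 exons made up 64.9%, against 47.8% of lincRNAs and 8.06% of coding transcripts, and 14.9% of members reached 1000 nucleotides, against 51.6% and 83.0%.

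Along the genome the median distance of a locus to the nearest annotated gene was 19768.5 bp. At 5 kb or more from any gene lay 1541 loci (72.5%), while 294 lay within 1 kb of one. The 5′ end of 184 loci (8.65%) lay within 1 kb of an annotated start on the other strand, 161 of them starts of coding genes, the arrangement of divergent promoters. Among themselves the loci formed 27 head-to-head pairs with 5′ ends within 1 kb. Per megabase outside genes, chromosome 10 held 1.91 loci and chromosome 5 held 1.82, against 0.347 on chromosome X, 0.458 on Y and 0.614 on chromosome 4. Of the loci, 40 were on X and 7 on Y, chromosomes that are silenced in pachytene spermatocytes. Part of the class has since been annotated: the start of 548 loci (25.8%) lay within 500 bp of a RefSeq start on the same strand, of which 496 belong to lncRNAs and 52 to coding genes. RefSeq promoters of build GRCm38.p6 were placed on mm9 by sequence for this match, and 31818 of 32841 could be placed. Finally, 210 loci shared an intron with a longer assembled transcript that reached an annotated gene, so that some may be parts of that gene's transcripts.

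The libraries differed widely in how many loci they listed. Depth is not given in the files except through the assembler's ratio of coverage to FPKM, which ranged over the libraries between 1.2 and 2.26. Loci listed per library ranged between 187 and 1487 of 2126, with a median of 946. Elongating spermatids listed 1279 to 1487 loci in polysomes and 949 to 1341 in RNPs. Round spermatids listed 232 to 1204 loci in polysomes and 187 to 1173 in RNPs, and pachytene spermatocytes 644 to 1191 in polysomes and 278 to 943 in RNPs. The lowest in each fraction of round spermatids was the library numbered 2. Marker genes with a value in any library were checked by their median log2 of scaled FPKM + 1. In the 2 round libraries numbered 2 the round spermatid genes (11 of 15) were at 3.0 and 3.64, against 4.22 to 7.31 in the other 16. The elongating spermatid genes (20 of 22) were at 1.72 and 2.42, against 1.80 to 8.96. The Sertoli cell genes (24 of 25), markers of the somatic support cells, were at 4.46 and 4.57 in the round libraries numbered 2. Their summed level there was 1297 and 1154 FPKM with none at 0, against 67.5 to 1650 FPKM in the other libraries with up to 12 genes at 0. The 1650 FPKM was in the pachytene RNP library numbered 2, with 372 and 370 FPKM in the other pachytene RNP libraries, while elongating spermatids had at most 127. In the pachytene libraries numbered 2 the elongating spermatid genes were at 1.80 in polysomes and 3.14 in RNPs. The round spermatid genes were at 4.22 and 4.34 there, and each of these values was the lowest of its group. The pachytene libraries numbered 2 were left out only 1 at a time. Where 3 values are given for round spermatids, the second is that of the library numbered 2, also where this is not named. The part of the round libraries numbered 2 in the results was not tested except by leaving them out.

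**Figure D2:**
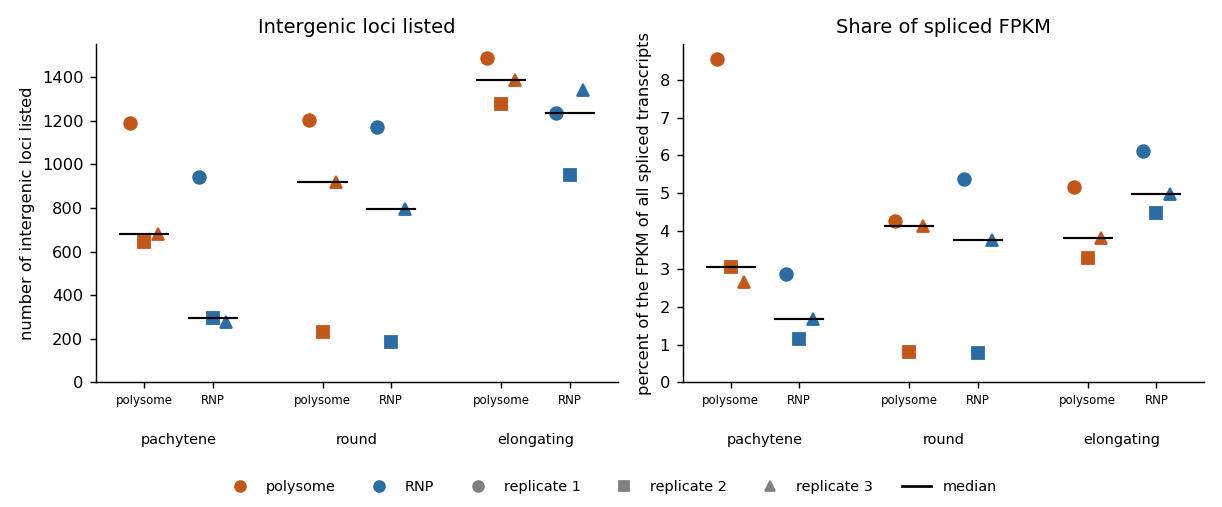
Number of intergenic loci listed in each library (left) and percent of the FPKM of all spliced transcripts carried by them (right), by stage and fraction; symbols mark the replicate and lines the median of 3 libraries. The round spermatid libraries numbered 2 list 232 loci in polysomes and 187 in RNPs, and every elongating spermatid library lists at least 949. In the first pachytene polysome library most of the locus FPKM is that of the short locus IgtYa.

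The loci carried between 0.789% and 8.56% of the FPKM of all spliced transcripts. The highest share, in the first pachytene polysome library, rested on few members, since the 10 most abundant loci made up 72.7% of the locus FPKM there. Most of the locus FPKM in that library was that of IgtYa, a short locus described below. The correlation of log levels between replicates of a group was 0.165 to 0.617 over the loci, against 0.474 to 0.891 over annotated genes. Values of single loci are therefore given library by library. They were scaled between libraries by a factor taken from annotated genes, and a value of 0 means that the transcript was not assembled in that library, not that the RNA was absent. In bulk samples such as these, fewer cells of a type and less RNA per cell cannot be told apart.

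The most abundant locus that every library listed was Igt5em, at chr5:143926421-143927465 on the minus strand, 6400 bp from Rbak, a zinc finger repressor gene. Its start lies 94 bp from that of the RefSeq lncRNA Rbakdn. Igt5em was at 1112, 514 and 289.6 FPKM in polysomes and 676, 218 and 628 FPKM in RNPs of pachytene spermatocytes. In round spermatids it was at 530.2, 46.8 and 377 FPKM in polysomes and 806, 135 and 613 FPKM in RNPs, and in elongating spermatids at 817, 452 and 709 FPKM in polysomes and 885, 484 and 663 FPKM in RNPs. The groups overlapped throughout, and the lowest values were those of the round spermatid libraries numbered 2. Igt14di (chr14:115345221-115347522) was likewise listed in all 18 libraries, at 7.60 to 178 FPKM in polysomes and 32.6 to 474 FPKM in RNPs over the 3 stages. Its divergent partner Igt14dh, at the start of the RefSeq lncRNA 1700100I10Rik, was listed in 4 libraries, at 0.755 to 15.6 FPKM. The loci Igt14de and Igt14df lie at the same RefSeq start, with means of 10.9 and 4.77 FPKM, beside 1.67 FPKM for Igt14dh.

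Igt1bx and Igt7bs, also among the 10 highest loci, had their highest values in RNPs of elongating spermatids. Igt1bx (chr1:73070668-73072078, plus strand, 386 nucleotides) lies 8195 bp from Tnp1, the gene of transition protein 1, and starts 22 bp from the RefSeq lncRNA 1700027A15Rik. In elongating spermatids it was at 320.0, 58.7 and 92.8 FPKM in polysomes, against 5023, 713 and 948 FPKM in RNPs. In round spermatids it was at 69.7, 5.28 and 9.93 FPKM in polysomes, against 316, 0 and 291 FPKM in RNPs, and in pachytene spermatocytes at 46.4, 0 and 4.72 FPKM, against 128, 0 and 50.1 FPKM. The 3 elongating RNP values lay above all others of this locus, and the comparison of elongating with round RNPs still missed the threshold (log2 fold change 5.06 ± 2.08 (SE), limma adjusted p = 0.33). Igt7bs (chr7:59266975-59271078, minus strand, 4 exons) was distributed alike, with 190.1, 73.2 and 101 FPKM in polysomes of elongating spermatids, against 4812, 486 and 396 FPKM in their RNPs. In round spermatids Igt7bs was at 36.5, 4.32 and 11.6 FPKM in polysomes, against 231, 0 and 158 FPKM in RNPs.

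Igt1cz (chr1:99079516-99086030, plus strand), the locus with the GC donor, was listed mainly in RNPs. In elongating spermatids it was at 27.8, 0 and 0 FPKM in polysomes, against 381, 1302 and 1343 FPKM in RNPs. Round spermatids had 0, 2.08 and 0 FPKM in polysomes, against 198, 0 and 545 FPKM in RNPs, and pachytene spermatocytes had 0, 3.46 and 0 FPKM, against 97.6, 23.8 and 412 FPKM. The fractions did not overlap in pachytene and in elongating spermatids, and in round spermatids they overlapped only through the RNP library numbered 2. The difference in elongating spermatids was a log2 fold change of -8.16 ± 1.83 (SE), with an adjusted p of 0.0514 that missed the threshold of 0.05 narrowly.

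The other abundant loci were uneven between replicates. IgtYa on chromosome Y had the highest mean, 4083 FPKM, but a spliced length of only 91 nucleotides in 2 exons at the ends of chrY:2606698-2777754. It was at 19163, 4222 and 3288 FPKM in pachytene polysomes, against 43.9, 0 and 0 FPKM in pachytene RNPs. All loci together summed to 33415.5 FPKM in the first of these polysome libraries. In round spermatids IgtYa was at 7353, 0 and 6684 FPKM in polysomes, against 7654, 0 and 2913 FPKM in RNPs, and in elongating spermatids at 8693, 3902 and 3688 FPKM in polysomes, against 0, 67.1 and 5830.0 FPKM in RNPs. It was thus high in all stages, and listed at 0 in both round spermatid libraries numbered 2. Igt3z, of 72 nucleotides, had 1693 FPKM in the first elongating RNP library and was listed in only 4 libraries. Igt3z and Igt6ct matched coding transcripts, Igt6ct that of the proteasome subunit gene Psma3, so that reads of a related gene and of these loci cannot be told apart with certainty. IgtYd, of 1083 nucleotides, was listed in 16 libraries at 7.85 to 347 FPKM.

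**Figure D3:**
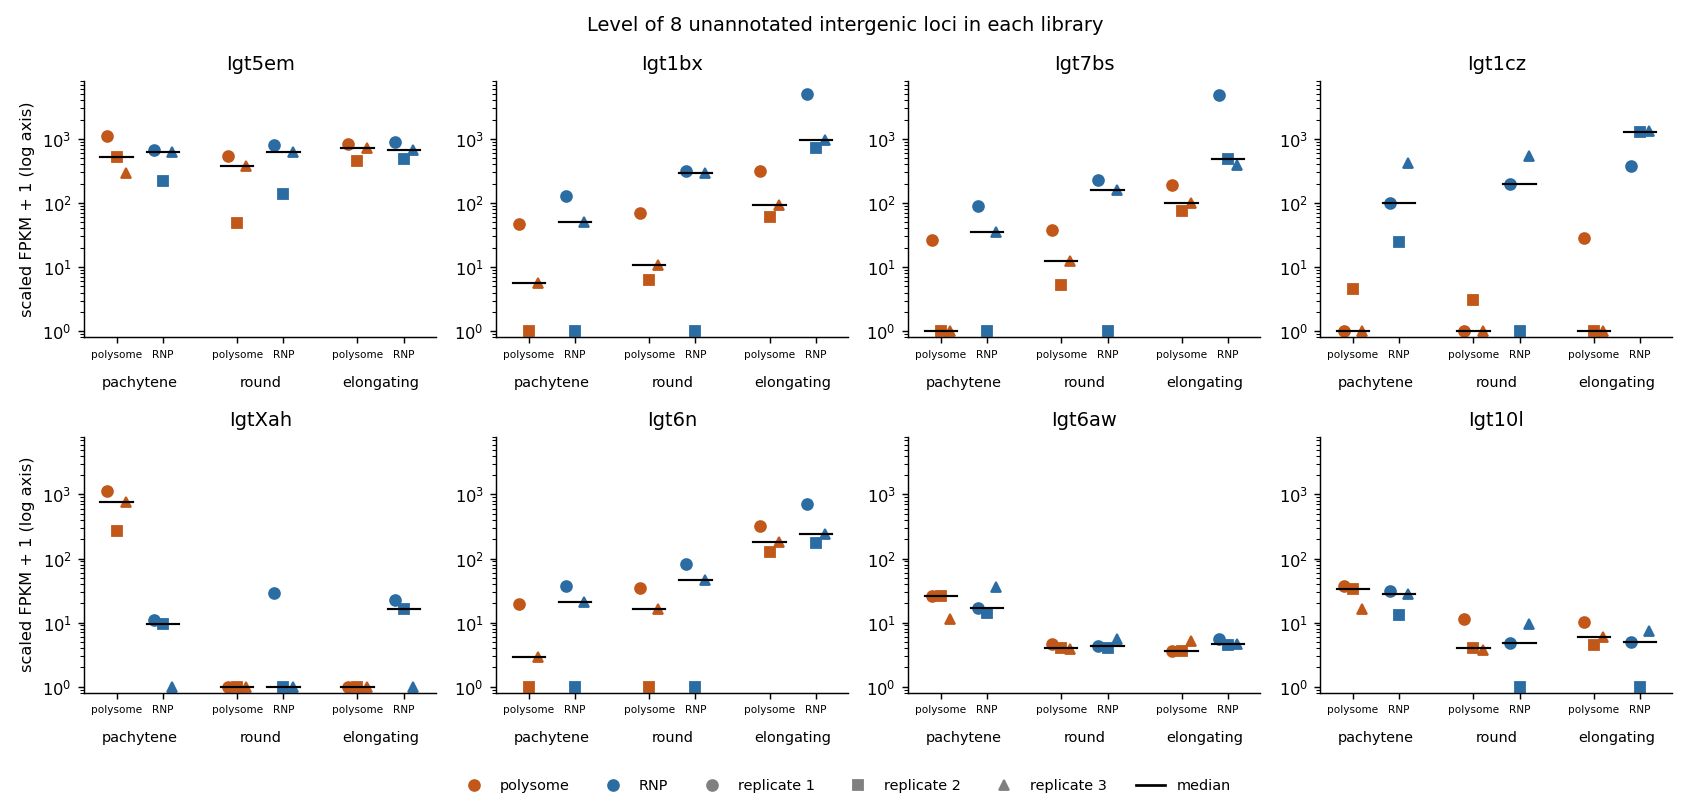
Level of 8 loci in each of 18 libraries as scaled FPKM + 1 on a log axis, with polysome (orange) left of RNP (blue) in each stage; lines mark the median of 3 libraries. Igt5em overlaps between all groups, Igt1bx, Igt7bs and Igt6n are highest in elongating spermatids, Igt1cz is high in RNPs, IgtXah reaches 264 to 1141 FPKM in pachytene polysomes, and Igt6aw and Igt10l are highest in pachytene spermatocytes.

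For the comparisons, 2078 of the 2126 loci reached 1 FPKM in at least 3 libraries and were tested together with 14336 annotated genes, in 1 limma fit of all libraries on log2(scaled FPKM + 1), so that fold changes of low loci are understated. Adjusted p-values are Benjamini-Hochberg values over all 16414 units. A locus listed in only the 3 libraries of 1 group passed the filter through that group and had to differ from the others. The counts of called loci therefore describe the data and do not support a trend of the class. Adjusted p-values of loci listed in 1 group only, or between stages of loci listed in 1 stage only, are a description too, and no support for a difference. The p-values measure the spread between these libraries, which stem from pooled testes. Counts of called loci under other settings, or without a library, are given below without the share of all units called. They therefore do not separate a shift of the loci from a shift of the whole fit.

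The first question was whether the loci were on polysomes or in RNPs. In pachytene spermatocytes, 3 loci were higher and 1 was lower in polysomes than in RNPs, 0.192% of the loci tested, and over all units 0.152% were called (0.116% higher, 0.0366% lower). The most abundant was IgtXah (chrX:120115865-120116712, minus strand, 210 nucleotides), with 1141, 264 and 756 FPKM in polysomes, against 10.03, 8.65 and 0 FPKM in RNPs. All polysome values lay above all RNP values (log2 fold change 7.01 ± 1.31 (SE), adjusted p = 0.0449). This call was lost when any 1 of the 6 pachytene libraries was left out, when only those libraries were fitted, and with a pseudocount of 0.1. Igt2av was at 3.29, 6.42 and 4.99 FPKM in pachytene polysomes and Igt4af, whose 5′ end lies 232 bp from the opposite start of Hivep3, at 3.73, 4.82 and 3.43 FPKM. Both were listed at 0 in the other 15 libraries (adjusted p = 0.000834 and 0.000912). They entered through pachytene polysomes, so these p-values are a description. The locus that was lower was Igt12cj, at the RefSeq start of Fam181a, listed at 0 in the 3 polysome libraries, against 7.24, 13.4 and 23.3 FPKM in RNPs (adjusted p = 0.0497), a call that was also lost without any 1 of the 6 libraries. Without pachytene polysome replicate 1 or pachytene RNP replicate 2 the count in this comparison was 2 in place of 4, and without scaling it was 26.

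In round spermatids no locus passed the limma test between polysomes and RNPs, 0% of 2078, with 0.067% over all units. At an unadjusted p under 0.05, 32 loci were higher and 62 lower in polysomes, and 6.18% of all units passed. The adjusted count of 0 was 8 without the RNP library numbered 2, 2 without the polysome library numbered 2, and 4 without both. These counts stand without the share of all units called, and the part of these libraries was not tested further.

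Elongating spermatids held most of the fraction calls, with 23 loci higher and 32 lower in polysomes than in RNPs. That was 2.65% of the loci tested, against 0.737% called over all units (0.402% higher, 0.335% lower). Without scaling the balance turned, with 37 higher and 31 lower. Over the loci, log2 fold changes had a median of -0.05, beside 0.01 over all units. All 23 loci that were higher were listed at 0 in all 3 RNP libraries, and 21 of the 32 that were lower were listed at 0 in all 3 polysome libraries. No fold is given against such a group. On the RNP side, Igt8t (chr8:27519980-27522163, 180 nucleotides) was listed at 0 in the 3 polysome libraries, against 37.1, 174 and 47.7 FPKM in RNPs (adjusted p = 7.93e-06). Igt7ag (chr7:36638515-36640267, 203 nucleotides) was also at 0 in polysomes, against 73.2, 44.0 and 55.1 FPKM in RNPs (adjusted p = 5.98e-07). Both were listed at 0 in all 12 libraries of the earlier stages. They entered through elongating RNPs, so their adjusted p-values are a description. Igt7cb, which matches the coding transcript of Fam55c, was at 0, 0 and 3.50 FPKM in polysomes, against 101, 108 and 94.9 FPKM in RNPs, with 3 close values in RNPs (log2 fold change -5.95 ± 1.07 (SE), adjusted p = 0.0139). Igt14dq, with 4 exons over chr14:120601960-120647378, was at 0 in polysomes, against 121, 56.7 and 50.4 FPKM in RNPs (adjusted p = 0.0396). It lost its call when any 1 of the 6 elongating libraries was left out.

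The loci called higher in polysomes had a median level of 3.47 FPKM there, and those called lower a median of 21.4 FPKM in RNPs. Igt13bv was at 12.1, 19.5 and 2.75 FPKM in elongating polysomes and Igt11ca at 8.11, 7.52 and 2.83 FPKM, and both were listed at 0 in the 15 other libraries (adjusted p = 0.00159 and 0.000534). Both entered through elongating polysomes, so these p-values are a description. Igt13b was at 7.93, 5.52 and 11.4 FPKM, against 0 in elongating RNPs (adjusted p = 0.0166). It shares an intron with a transcript that reaches the pseudogene Speer6-ps1. Igt6j was at 8.50, 4.63 and 2.73 FPKM, also against 0 in elongating RNPs (adjusted p = 0.0236). A RefSeq start lay at 1 of the 23 loci that were higher and at 2 of the 32 that were lower. Without elongating polysome replicate 2 the count was 36 in place of 55.

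**Figure D4:**
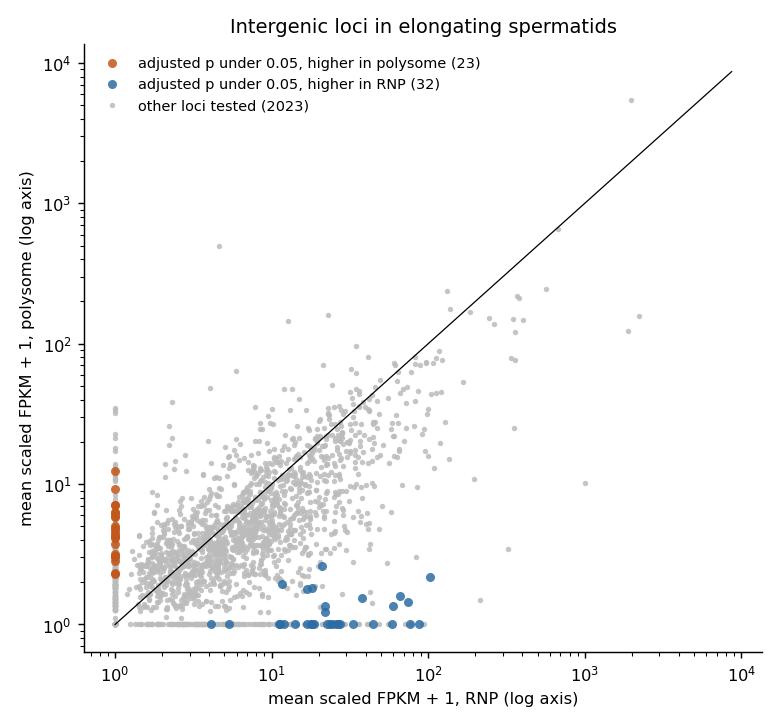
Mean scaled FPKM + 1 of each of 2078 loci tested in elongating spermatids, polysome on the vertical and RNP on the horizontal log axis (n = 3 each); the line marks equal levels. The 23 loci called higher in polysomes (orange) lie on the left edge, where the RNP libraries list 0, and the 32 called lower (blue) lie at or near 0 in polysomes.

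The next question was how the loci changed with stage. Between round spermatids and pachytene spermatocytes few differences passed the test. In RNPs, 0 loci and 0% of all units were called by limma, with 75 loci higher and 41 lower at an unadjusted p under 0.05, which 5.47% of all units passed. In polysomes, 3 loci were lower in round than in pachytene spermatocytes (0.144%, with 0.0914% of all units called, 0.0122% higher and 0.0792% lower), and 0 were higher. At an unadjusted p under 0.05 limma had 18 loci higher and 75 lower, with 6.26% of all units. The 3 loci were IgtXah, Igt2av and Igt4af, which were also called higher in pachytene polysomes than in RNPs, and all were listed at 0 in the 3 round polysome libraries (adjusted p = 0.00573, 0.00205 and 0.00205). Both comparisons share the pachytene polysome libraries, through which Igt2av and Igt4af entered. None of the 3 passed between the stages when only the 6 libraries compared were fitted. Without the round polysome library numbered 2 the count was 5, and without both libraries numbered 2 it was 8 in polysomes and 9 in RNPs.

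Some long loci were high in pachytene spermatocytes without passing the test. The 4 described here were chosen after their values were seen. Igt6aw (chr6:81842990-81861746, minus strand, 6 exons, 7509 nucleotides) was at 3.65, 2.98 and 2.86 FPKM in round polysomes, against 24.5, 25.1 and 10.2 FPKM in pachytene polysomes. In RNPs it was at 3.35, 2.94 and 4.57 FPKM in round, against 16.0, 13.2 and 34.7 FPKM in pachytene spermatocytes. Its pachytene values all lay above its 12 later ones, and the fall in polysomes, by 2.24 ± 0.48 (SE) on the log2 scale, had an adjusted p of 0.102. Exons of Igt6aw contain the hairpins of the miRNAs Mir7232 and Mir468.

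Igt6co (chr6:127723316-127746370, minus strand), with the hairpin of Mir7233 in an exon, was at 0, 0 and 2.84 FPKM in round polysomes, against 16.3, 15.6 and 9.21 FPKM in pachytene polysomes (adjusted p = 0.139). In RNPs, round spermatids had 5.40, 2.11 and 3.48 FPKM, against 22.2, 10.8 and 37.8 FPKM in pachytene spermatocytes. Igt10l (chr10:18515154-18551748, 9086 nucleotides), at the start of the RefSeq lncRNA 4930444F02Rik, was at 10.3, 2.96 and 2.76 FPKM in round polysomes, against 36.0, 32.99 and 15.3 FPKM in pachytene polysomes (adjusted p = 0.592). Igt1cp, at the RefSeq lncRNA 1700020N18Rik, was at 2.998, 1.49 and 4.29 FPKM in round polysomes, against 25.4, 24.7 and 12.9 FPKM in pachytene polysomes (adjusted p = 0.0924). Over the 15 tested loci of 5000 nucleotides or more, 11 had lower values in round than in pachytene polysomes. The median of their log2 fold changes was -1.38, beside 0.03 over all units. These 15 include Igt6aw and Igt10l, which were chosen after their values were seen, so this median is a description. The 1144 loci under 500 nucleotides had a median of 0.00 in that comparison, with 450 above 0 and 433 below. The 684 loci from 500 to under 1000 nucleotides also had 0.00, with 313 above 0 and 284 below. So did the 235 loci from 1000 to under 5000 nucleotides, with 105 above 0 and 106 below. The median thus did not fall step by step with length, and only the longest class stood apart. In RNPs the medians were -0.70 for the long loci, with 5 above 0 and 8 below, and 0.00 for the short ones. The middle classes had 0.13 and 0.17 there, beside 0.08 over all units. The long loci were listed in a median of 14 libraries and the short ones in 6. The part of detection in this difference was not tested.

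Between elongating and round spermatids every called locus was higher in elongating spermatids. The members entered by being listed in 3 libraries and the elongating libraries listed most of them, so the counts, medians and shares that follow carry the choice of members and are given as a description. In RNPs, 50 loci were higher and 0 lower in elongating than in round spermatids (2.41%, with 0.792% of all units called, 0.743% higher and 0.0487% lower). At an unadjusted p under 0.05 limma had 419 loci higher and 25 lower, with 12.6% of all units. The median log2 fold change was 0.78 over the loci, beside 0.00 over all units, and 70.2% of the loci were above 0, against 48.7% of all units. In polysomes, 47 loci were higher and 0 lower (2.26%, with 0.883% of all units called, 0.835% higher and 0.0487% lower). At an unadjusted p under 0.05 limma had 388 loci higher and 17 lower in polysomes, with 14.6% of all units. The median there was 0.85, beside 0.02 over all units, with 77.6% of the loci above 0, against 50.8%. Annotated lincRNA genes had medians of 0.30 in RNPs and 0.49 in polysomes, and coding genes -0.07 and -0.13. Without both round libraries numbered 2, which listed the fewest loci, the medians of the loci were 0.36 in RNPs and 0.50 in polysomes, and the counts were 29 and 23.

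**Figure D5:**
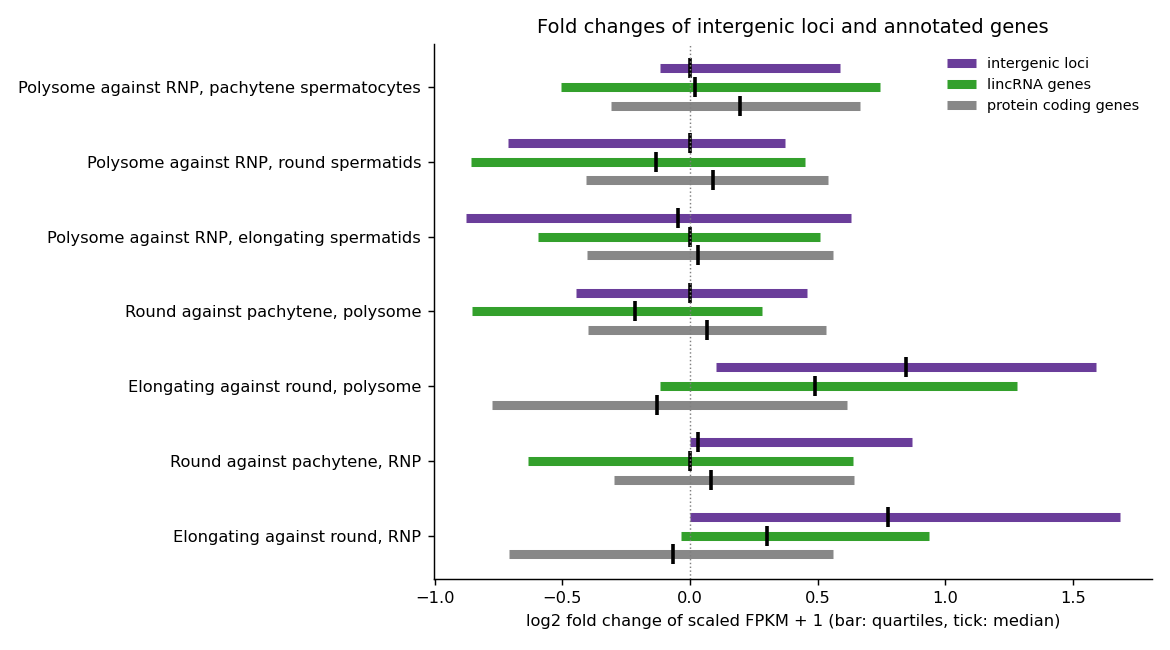
Quartiles (bars) and medians (ticks) of log2 fold changes of scaled FPKM + 1 for the 2078 intergenic loci (purple), 294 lincRNA genes (green) and 13461 coding genes (grey) in the 7 comparisons of groups. In both comparisons of elongating with round spermatids the loci, chosen by detection, have medians of 0.85 in polysomes and 0.78 in RNPs.

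These stage calls were the ones that moved most with the libraries and the model, and whether all units moved alike is not shown here. In RNPs the count was 91 without round replicate 1, 29 without round replicate 2, 31 without round replicate 3, 113 without elongating replicate 2 and 83 without elongating replicate 3. In polysomes it was 14 without round replicate 2, 12 without round replicate 3 and 20 without elongating replicate 1. When the 6 libraries compared were fitted alone, no locus passed in RNPs and 2 did in polysomes, 1 in each direction. Of the 50 loci called in RNPs, 43 were listed at 0 in all 3 round RNP libraries, and of the 47 in polysomes 43 were listed at 0 in all 3 round polysome libraries. Both fractions called 14 loci.

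Igt13z (chr13:46824672-46832250, minus strand, 134 nucleotides) and Igt17ch (chr17:84359590-84360235, minus strand, 182 nucleotides) were among the leading loci in both fractions and were listed in no library of an earlier stage. Igt13z was at 115, 14.9 and 96.98 FPKM in polysomes and 185, 130.1 and 50.7 FPKM in RNPs of elongating spermatids (adjusted p = 0.000594 in polysomes and 4.27e-05 in RNPs). Igt17ch, at the start of the RefSeq lncRNA Gm41638, was at 24.0, 14.5 and 32.9 FPKM in polysomes and 150.4, 96.7 and 31.3 FPKM in RNPs (adjusted p = 0.00103 and 1.1e-05). The 6 elongating libraries thus all listed both loci and the 12 others listed neither. Both loci entered through elongating spermatids, so their adjusted p-values against round spermatids are a description and no support for a difference.

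Igt4r (chr4:57178008-57178446) was at 68.5, 960.1 and 21.8 FPKM in elongating RNPs and listed at 0 in round RNPs (adjusted p = 0.0107), with 1 library far above the others. Igt7at was at 70.0, 86.2 and 115 FPKM in elongating RNPs, again with 0 in round RNPs (adjusted p = 0.00172). In polysomes Igt1ag, which shares an intron with a transcript reaching Vwa3b, was at 92.7, 71.5 and 44.1 FPKM in elongating spermatids and listed at 0 in round spermatids (adjusted p = 0.0144). It was present earlier, at 22.9, 4.34 and 7.75 FPKM in pachytene polysomes. Igt16al was at 27.6, 24.1 and 11.5 FPKM in elongating polysomes (adjusted p = 0.0371) and lost its call when any 1 of the 6 polysome libraries compared was left out.

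Some abundant loci were higher in elongating spermatids but did not pass the test, and the 2 given here were chosen after their values were seen. Igt6n, at the RefSeq lncRNA 1700016P04Rik (chr6:13363338-13366088), was at 716, 175 and 241 FPKM in elongating RNPs, against 82.2, 0 and 45.3 FPKM in round RNPs (log2 fold change 4.32 ± 1.68 (SE), adjusted p = 0.311). In polysomes Igt6n was at 324, 127 and 181 FPKM in elongating, against 33.6, 0 and 15.2 FPKM in round spermatids. Igt7c, at 1700095K22Rik, was at 639, 279.8 and 128 FPKM in elongating RNPs, against 91.3, 0 and 0 FPKM in round RNPs (adjusted p = 0.216). For both loci the groups did not overlap.

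Grouped by the stage and fraction with the highest median, 768 of the 1882 loci with any median above 0 (40.8%) had it in elongating RNPs and 588 (31.2%) in elongating polysomes. Among annotated lincRNA genes these shares were 28.3% and 22.5%, and among coding genes 17.8% and 17.8%. For the loci the highest median was in pachytene polysomes for 184, in round RNPs for 149, in round polysomes for 97 and in pachytene RNPs for 96. This order follows in part from the rule, since a locus listed only in the 3 libraries of a group must be highest there, and it was not recomputed without the round libraries numbered 2.

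Whether the fraction difference itself changed with stage was tested as an interaction. Between elongating and round spermatids it changed for 12 loci, 3 toward polysomes and 9 toward RNPs (0.577%, with 0.122% of all units called, 0.0305% toward polysomes and 0.0914% toward RNPs). This test shares its elongating libraries with the comparison of their fractions. Igt8t, listed only in elongating RNPs, was one of them (adjusted p = 0.00103), and Igt3c and Igt7en were chosen as further examples after their values were seen. Igt3c, at the RefSeq lncRNA Gm41988, was at 0, 1.80 and 0 FPKM in elongating polysomes, against 83.1, 69.9 and 43.8 FPKM in elongating RNPs. In round spermatids Igt3c was at 0, 0 and 1.70 FPKM in polysomes and listed at 0 in RNPs (adjusted p = 0.00178). Igt7en, with its start 96 bp from the RefSeq start of the odorant receptor gene Olfr46, was listed only in elongating RNPs, at 18.9, 7.92 and 12.6 FPKM (adjusted p = 0.00345). Like Igt8t, it entered through that group, so its adjusted p-value is a description. Between round spermatids and pachytene spermatocytes limma found a change for 0 loci (0%, with 0.0122% of all units), and at an unadjusted p under 0.05 for 9 toward polysomes and 51 toward RNPs, with 2.45% of all units. Without round polysome replicate 3 or round RNP replicate 3 the count of 12 was 7.

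Loci at RefSeq starts of coding genes are described next, chosen after their values were seen as the most abundant or as listed in all 18 libraries. Igt1fd, a locus of 9 exons at the start of Dnah14, which encodes an axonemal dynein heavy chain, was at 7.17 to 92.0 FPKM over the 18 libraries. Igt9dm (chr9:122656359-122680883, 6 exons, 3178 nucleotides), at the start of Topaz1, a germ cell gene needed for meiosis in male mice, was listed in all 18 libraries. It was at 8.04, 6.81 and 10.1 FPKM in pachytene polysomes and 9.53, 20.4 and 7.97 FPKM in pachytene RNPs, and all later values lay between 4.35 and 9.95 FPKM. Igt13cv, at the start of Ankrd31, a regulator of meiotic recombination in mice, was at 3.897, 7.35 and 6.88 FPKM in elongating polysomes, against 12.6, 12.4 and 12.9 FPKM in pachytene polysomes. Igt16h, at Gm5767, had higher values late, with 151, 219 and 85.5 FPKM in elongating polysomes, against 21.0, 0 and 4.30 FPKM in round polysomes. Of the 52 loci with a RefSeq coding start, limma called 1 in the fractions of pachytene spermatocytes, Igt12cj, where 0.152% of all units were called. It called 1, Igt7en, lower in polysomes of elongating spermatids (0.737% of all units), higher in elongating than in round RNPs (0.792%) and in the change of the fraction difference (0.122%), and these 3 tests share the elongating RNP libraries. For Igt9bg, whose start lies 71 bp from the opposite start of Pigb, the RefSeq gene is Pigbos1, a mitochondrial microprotein gene, and the locus was at 4.53 to 20.3 FPKM in all 18 libraries.

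In the other divergent pairs of the 5 with the highest summed level, values were as follows. Igt8an was at 71.1, 29.3 and 57.5 FPKM in elongating polysomes and 325, 87.2 and 84.9 FPKM in elongating RNPs, while Igt8ao, 275 bp away, was listed in 3 libraries at 6.24 to 43.3 FPKM. Igt19am was at 231, 81.3 and 68.0 FPKM in elongating RNPs, while Igt19al, 233 bp away, did not exceed 1.598 FPKM in any library. Igt12cg and Igt12cj start 193 bp apart, and Igt12cg was at 30.5, 34.4 and 32.3 FPKM in elongating polysomes, against 33.2, 0 and 14.9 FPKM in round polysomes. In the fifth pair, 204 bp apart, Igt18w was listed in 14 libraries at 1.83 to 449 FPKM and Igt18x in 3 libraries at 2.51 to 9.75 FPKM.

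The piRNA pathway genes, checked as a list of 26 because the class may include piRNA precursors, gave 1 call. Of 24 genes tested only Mybl1 passed, and only between the fractions of round spermatids, where 0.067% of all units were called. Mybl1 was at 116, 89.5 and 143 FPKM in polysomes, against 11.6, 12.4 and 10.9 FPKM in RNPs of round spermatids (log2 fold change 3.19 ± 0.49 (SE), adjusted p = 0.0176). In pachytene spermatocytes Mybl1 was at 27.3, 23.5 and 47.9 FPKM in polysomes, against 22.3, 19.05 and 17.7 FPKM in RNPs, where the fractions did not overlap but the test was not passed (adjusted p = 0.919). The list's median log2 fold change between round and pachytene spermatocytes was -0.42 in RNPs and -0.11 in polysomes, with 6 and 11 of 24 genes above 0, beside medians of 0.08 and 0.03 over all units. Between elongating and round spermatids it was -0.22 in RNPs and -0.53 in polysomes, with 8 of 24 genes above 0 in each, beside 0.00 and 0.02. The list's median log2(scaled FPKM + 1) was 4.09, 5.31 and 4.70 in round polysomes and 3.66, 5.26 and 4.01 in round RNPs. It was thus highest in the libraries numbered 2, and the fold changes of the list were not recomputed without them.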

How the data were processed

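RNA from polysome and RNP fractions of 3 germ cell stages was sequenced by the authors from stranded libraries, with reads of 50 bases. Reads were single-end from UT Southwestern and paired-end from BGI, and the paper does not say which libraries came from which. Per the labels, TopHat and Cufflinks were used with mm9, and versions are not given in the sources used here. The deposited values are FPKM of assembled transcripts, given by the authors for each library. Transcripts were merged between libraries by intron chain, and the FPKM of a locus was the sum over spliced intergenic transcripts carrying one of its introns. Libraries were scaled by median ratios over 6958 genes above 1 FPKM in all 18 libraries. Groups were compared with limma 3.58.1 in R 4.3.3 on log2(scaled FPKM + 1), with 6 groups in 1 fit, for units at 1 FPKM or more in 3 libraries and Benjamini-Hochberg adjustment at 0.05. The code was tested on simulated data. Sequences were matched with minimap2 2.31-r1302 and BLAST 2.17.0. Absolute depth is unknown, so no interval from counts is given.

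The members and lists were chosen with earlier results of these data known. Named loci were the 10 with the highest mean, up to 4 per direction among called loci of each comparison of groups with a mean of at least 2 FPKM and no overlap, and 5 head-to-head pairs, with exceptions marked in the text. Alternatives were no scaling, a pseudocount of 0.1, only the libraries compared, a replicate block, single transcripts, a distance of 5 kb from genes, and leaving out libraries. Same-numbered libraries deviated together (every pair's correlation over 0.1) for the fractions of round spermatids, at 0.518, 0.669 and 0.172, and for round against pachytene RNPs, at 0.410, 0.616 and 0.124. Some pairs of other numbers were above the lowest of these. Round polysome 1 with RNP 3 had 0.314 and polysome 3 with RNP 1 had 0.205. Round RNP 3 with pachytene RNP 1 had 0.253 and round RNP 1 with pachytene RNP 3 had 0.171. Any pairing there rests on this check alone, which does not settle it, and the replicate block left 0 calls in both.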

Additional observations from a re-analysis of the deposited data

Results flagged for a closer look

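In 12 loci the difference between polysome and RNP fractions was not the same in elongating and in round spermatids by the interaction test in limma, with p-values adjusted by Benjamini-Hochberg. A negative value means a shift toward RNPs in elongating spermatids, as fitted on log2(scaled FPKM + 1). Where groups are listed at 0 the value depends on the pseudocount of 1 and is no fold. It was -6.10 for Igt8t (adjusted p = 0.00103), -5.99 for Igt3c (0.00178), -5.84 for Igt7ag (0.0001), -5.39 for Igt4z (0.00672), -4.50 for Igt2j (0.00141), -4.44 for Igt3ai (0.00103), -3.99 for Igt8af (0.0203), -3.75 for Igt7en (0.00345) and -3.46 for Igt2i (0.015). It was 2.74 for Igt11ca, 2.48 for Igt8j and 2.24 for Igt1bg, with an adjusted p of 0.0416 for each. Of the 12 loci, 9 were listed in exactly 3 libraries, so that these values follow from detection in 1 group.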

How the results depend on the processing

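The number of called loci depended on the processing. The counts in this section stand without the share of all units called under the same setting, so they are not read as a trait of the loci. The 23 called fold changes of loci named by the rule were recomputed 296 times, and 241 kept their call and 55 lost it. None reversed its sign, which a locus listed at 0 in all libraries of the lower group cannot do, and loci that were not called were not recomputed. With FPKM as deposited, without scaling, 26 loci were called between the fractions of pachytene spermatocytes (4 as reported), 24 in elongating against round RNPs (50), 13 in round against pachytene polysomes (3) and 84 in elongating against round polysomes (47). Between the fractions of elongating spermatids this gave 37 higher and 31 lower. With a pseudocount of 0.1 the counts were 9 for the pachytene fractions, 8 for round against pachytene polysomes, and 2 and 19 for the change of the fraction difference to round and to elongating spermatids (0 and 12 as reported). With only the libraries compared they were 13 for the pachytene fractions, 1 for round against pachytene RNPs, 0 for elongating against round RNPs, 0 and 2 for the same stage comparisons in polysomes, and 4 and 6 for the changes. Single transcripts in place of loci gave 1 and 26 in RNPs and 5 and 31 in polysomes for the 2 stage steps, and 7 for the later change. Loci at 5 kb or more from genes gave 1 for the pachytene fractions and 1 for round against pachytene polysomes. Without both round libraries numbered 2, chosen after seeing the data, the counts were 4 for the round fractions, 9 and 29 in RNPs and 8 and 23 in polysomes.

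With the replicate block, elongating against round gave 94 loci in RNPs and 118 in polysomes, where the numbers are not known to pair the samples (correlations 0.0509, 0.0359 and -0.0564 in RNPs), and the call of Igt12cj was lost. The other counts under the block stayed within 1.5 times those reported.

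Leaving out 1 library at a time gave 2 to 6 loci for the pachytene fractions, 0 to 8 for the round and 36 to 70 for the elongating fractions, 0 to 4 for round against pachytene RNPs and 3 to 5 for polysomes, 29 to 113 for elongating against round RNPs and 12 to 57 for polysomes, and 0 to 1 and 7 to 14 for the changes. The cause of these shifts was not tested. Absolute depth is unknown, and its part in the values of 0 was not tested.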
